A study of Mus musculus with 16 samples.

Results

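The collagen chain genes are those that code for the alpha chains of the collagens, the triple-helical proteins of the extracellular matrix. They were chosen by name, as every gene whose symbol in the platform annotation reads Col, a number, the letter a and a number. This gave 44 genes of 19938 tested, measured by 46 probe sets. Where a gene had several probe sets, which held for Col6a5 and Col6a6, the brightest was used. By known structure, 11 were fibrillar chains, 6 were chains of the basement membrane network (Col4a1 to Col4a6) and 2 were multiplexins. A further 6 were beaded filament chains of type VI, 4 were short chain or anchoring collagens, 9 were fibril-associated collagens (FACIT), 4 were transmembrane collagens and 2 fell outside these classes. Col1a1, Col1a2, Col3a1, Col5a1 and Col5a2 were also set apart as the 5 fibrillar chains best known from the meninges.

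RNA was measured on 16 Affymetrix arrays from the olfactory bulb core (OB), the destination of adult-born neurons, and from the subependymal zone (SEZ), where they are born. The mice were 2.5 months old, of a mixed C57BL/6 and CD1 background, and all carried GlastCreERT2, a tamoxifen-dependent recombinase driven from a gene of astroglia and neural stem cells. The arrays held 3 OB cKO and 5 OB control samples, and 3 SEZ cKO and 5 SEZ control samples. The cKO animals were GlastCreERT2/Brg1fl/fl and the controls GlastCreERT2/Brg1fl/+, except SEZ control replicate 5, which is listed as GlastCreERT2/Brg1+/+. Brg1, coded by Smarca4, is an ATPase of a chromatin remodelling complex. The labels give no treatment and list sex as not determined, and the sources used here give no time of recombination. They call the samples biological replicates.

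In most organs the fibrillar collagens are the bulk of connective tissue. The brain itself holds little of them, and they sit mainly in the meninges and around larger vessels, where fibroblasts make them. The type IV chains form the sheet-like network of the basement membranes that wrap brain vessels and underlie the meninges, and they are made largely by endothelium, pericytes and fibroblasts. Some collagens are made by neurons instead, among them the transmembrane collagen coded by Col25a1. In samples of whole tissue, fewer cells of a type and less RNA per cell cannot be told apart.

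The array values are log2 expression after RMA, so that a difference of 1 is a 2-fold change. Levels of different genes come from different probes and were not set against each other. Array medians lay between 7.45 and 7.65. Marker lists separated the tissues as labelled. Mean levels of the 5 striatal projection neuron markers measured were 7.86 to 8.42 on the OB arrays, against 12.43 to 12.68 on the SEZ arrays, and all 6 ependymal markers were lower in OB controls than in SEZ controls. The 4 mitral and tufted cell markers and the 4 bulb interneuron markers were all higher in OB. Smarca4 itself averaged 11.02 ± 0.06 in OB cKO and 11.01 ± 0.04 in OB control samples, and 10.70 ± 0.08 in SEZ cKO and 10.71 ± 0.04 in SEZ control samples (SD, n = 3 and 5). Some arrays stood apart from their groups. Meningeal fibroblast markers were high on OB cKO replicate 1 and OB control replicates 1 and 2, and Slc17a7, a marker of cortical excitatory neurons, reached 10.58 on SEZ control replicate 2 and 11.06 on SEZ control replicate 4, while the other 3 SEZ controls lay at 8.44 to 8.98. Slc1a3, the astroglial transporter gene that drives the recombinase, had 8.85 in OB cKO replicate 3 and 8.16 in SEZ cKO replicate 3, against 11.16 to 12.27 on all other arrays. The cKO labels have no check in Smarca4 in these values, and the genotype groups are as labelled.

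Promoters of 4 genes are shown, and their letters were not related to the expression values. Col4a1 and Col4a2 code for the pair of chains that make up the common basement membrane network and lie head to head, and Col25a1 and Col23a1 are the transmembrane collagens that differed between the tissues in opposite directions. Each window runs from 250 bases before to 50 bases after the start of the gene in RefSeq annotation of GRCm38.p6 and is written on the gene's own strand. The windows are chr8:11312777-11313076 on the minus strand for Col4a1, chr8:11312555-11312854 on the plus strand for Col4a2, chr3:130180595-130180894 on the plus strand for Col25a1 and chr11:51289670-51289969 on the plus strand for Col23a1. In the first pair, capitals mark the 78 bases that both windows share, chr8:11312777-11312854, read on opposite strands. In the second pair, capitals mark matches to the motifs given in the next paragraph.
Col4a1: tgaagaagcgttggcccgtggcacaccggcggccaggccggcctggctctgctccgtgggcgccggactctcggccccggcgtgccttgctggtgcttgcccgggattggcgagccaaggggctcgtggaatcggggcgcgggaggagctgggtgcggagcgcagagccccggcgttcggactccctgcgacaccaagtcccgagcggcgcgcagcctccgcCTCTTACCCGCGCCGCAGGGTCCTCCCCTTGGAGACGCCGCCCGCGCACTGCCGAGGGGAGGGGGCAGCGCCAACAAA
Col4a2: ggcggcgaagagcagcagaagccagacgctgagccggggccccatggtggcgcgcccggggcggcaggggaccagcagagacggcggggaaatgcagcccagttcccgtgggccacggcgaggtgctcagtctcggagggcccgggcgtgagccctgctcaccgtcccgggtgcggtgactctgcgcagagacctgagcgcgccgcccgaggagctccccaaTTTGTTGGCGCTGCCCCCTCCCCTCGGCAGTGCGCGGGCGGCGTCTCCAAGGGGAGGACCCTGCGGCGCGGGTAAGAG
Col25a1: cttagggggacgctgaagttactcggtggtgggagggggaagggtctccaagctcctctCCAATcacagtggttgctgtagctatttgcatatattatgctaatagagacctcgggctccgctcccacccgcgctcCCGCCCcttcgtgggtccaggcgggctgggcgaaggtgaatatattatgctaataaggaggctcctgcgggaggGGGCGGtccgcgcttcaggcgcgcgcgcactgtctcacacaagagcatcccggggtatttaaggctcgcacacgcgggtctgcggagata
Col23a1: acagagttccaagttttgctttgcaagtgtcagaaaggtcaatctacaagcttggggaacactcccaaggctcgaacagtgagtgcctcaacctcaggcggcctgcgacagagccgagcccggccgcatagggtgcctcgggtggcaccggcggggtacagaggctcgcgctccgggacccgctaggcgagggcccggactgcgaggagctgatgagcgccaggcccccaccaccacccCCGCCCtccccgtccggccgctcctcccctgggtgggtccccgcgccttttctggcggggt
The annotated starts of Col4a1 and Col4a2 lie 21 bases apart, which places both starts on 1 short stretch of DNA. The genes run in opposite directions from there, and by these starts their first bases overlap. By contrast, the starts of Col4a5 and Col4a6, the pair on the X chromosome, lie 1343 bases apart and their windows share no base.

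Promoter windows were found for 35 of the 44 genes, 38 windows in all, and set beside the 32851 windows of the whole table. The letters of 3 promoter motifs were searched on both strands, and no match in the 4 windows above overlapped another. TATAAA, the core of a TATA box, was in 5 of the 38 collagen windows (13.2%) and in 13.6% of all windows. CCAAT, the letters of the CCAAT box, was in 13 (34.2%) and in 37.4% of all windows. GGGCGG, the GC box letters, was in 23 (60.5%) and in 35.7% of all windows. The collagen windows had a median GC content of 59.8% and a median of 11 CG pairs, against 52.7% and 7 over all windows, so the GC box share was not compared at equal base composition. A match describes letters only.

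The level of the 1015 olfactory receptor genes, which brain tissue uses little, served as a background. Its 95th percentile over group means was 6.88 in OB cKO, 6.85 in OB control, 6.88 in SEZ cKO and 6.81 in SEZ control samples. Of the 44 collagen chains, 40 lay above it in all 4 groups. All chains but Col10a1 and Col19a1 lay above it in at least 1 group, as did 14356 other genes of the 19938 tested. Col10a1, the chain of growth plate cartilage, and Col19a1, a minor FACIT, were above it in 0 groups. Col8a1 was above it in 2 groups and Col4a6 in 3. Genes at this level give no usable fold. A level above it does not by itself show that a chain is made in the tissue.

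OB and SEZ were first compared in control animals, to ask which collagen chains mark either tissue. Most collagen chains differed little between them. Of the 44 chains, 3 were higher in OB and 1 was lower (limma, adjusted p under 0.05 over all genes), where 27.5% of all genes tested passed in either direction, 12.6% higher and 14.9% lower. The share of chains that passed was below that of all genes. The count of 4 was 2 with only genes above the median level, 9 with array weights and 8 with the mean of the olfactory receptor genes as a covariate, which was added after seeing the data. Without the 3 OB arrays with high meningeal markers it was 3, and without SEZ control replicates 2 and 4 it was 6. With the replicate number as a block it was 6, Col1a1 and Col6a4 being added to the 4. With a block by number within genotype it was 5, Col1a1 alone being added. The chains' median difference was 0.044 and that of all genes 0.003. The log2 difference was under 0.2 in size for 36 chains (81.8%) and for 64.6% of all genes. Estimates were above 0 for 32 of the 44 chains (72.7%) and for 50.9% of all genes. Every OB control array lay above every SEZ control array for 2 chains, where this held for 9.93% of all genes, and below for 1 chain, where it held for 11.9%.

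**Figure D1:**
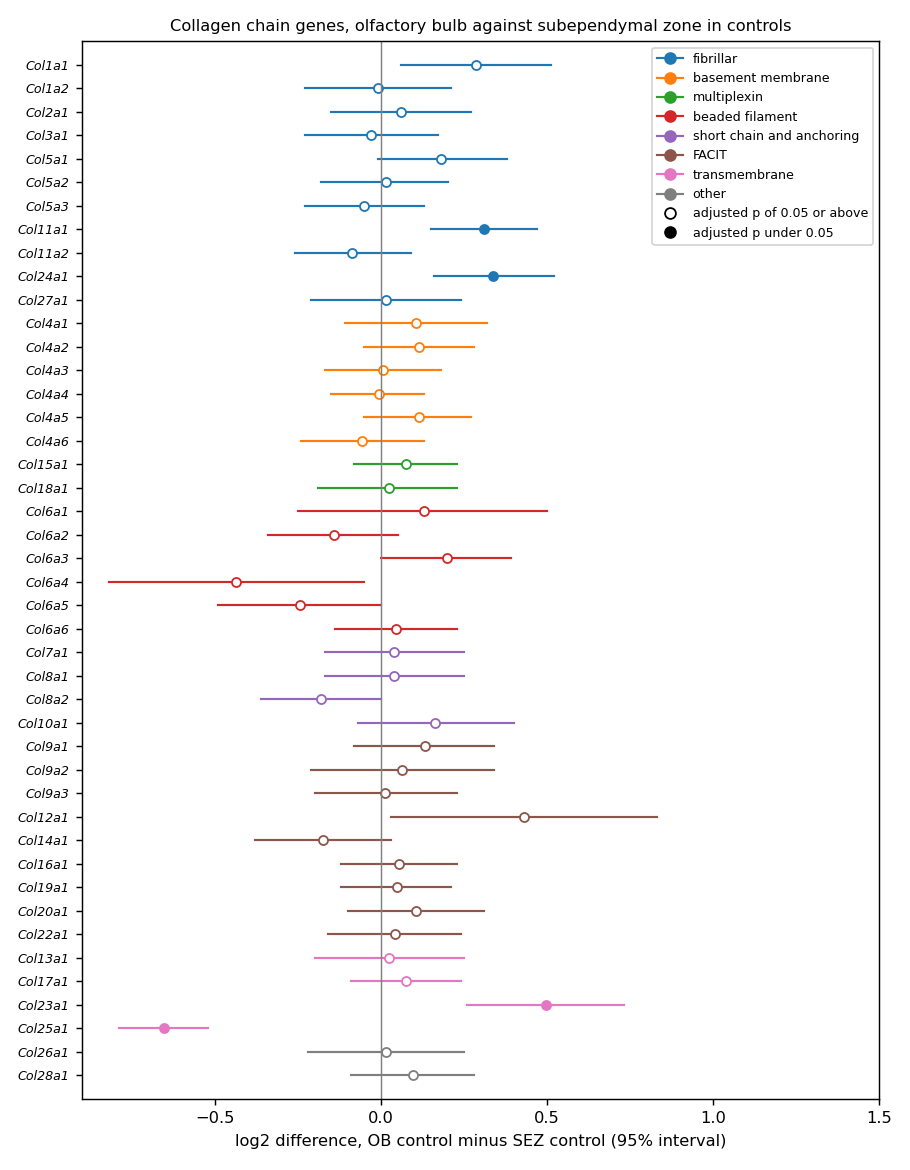
Log2 difference between OB control and SEZ control samples for each of the 44 collagen chain genes, with 95% intervals, coloured by structural class, with filled points for genes that passed. Filled points are Col25a1 at -0.65, on the side of lower values in OB, and Col11a1, Col24a1 and Col23a1 between 0.31 and 0.50 on the other, while the 6 basement membrane chains lie between -0.06 and 0.12.

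Among the transmembrane collagens, 2 of 4 passed, in opposite directions. Col25a1 codes for a neuronal membrane collagen whose shed part is found in amyloid plaques. Its level was 7.61, 7.70, 7.60, 7.70 and 7.51 in OB control samples, against 8.28, 8.24, 8.23, 8.39 and 8.25 in SEZ control samples. Every OB control array was below every SEZ control array. The log2 difference was -0.65 (SE 0.065, 95% interval -0.79 to -0.52, limma adjusted p = 4.56e-07), or 1.57-fold lower in OB. Col25a1 had the smallest spread between replicates of the 44 chains, with a within-group SD of 0.090.

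Col23a1 codes for another membrane collagen with a shed ectodomain. Its level was 8.56, 8.67, 8.45, 8.70 and 8.45 in OB control samples, against 8.24, 8.05, 8.20, 7.94 and 7.90 in SEZ control samples. The groups did not overlap, and OB was higher by 0.50 (SE 0.113, interval 0.26 to 0.73, limma adjusted p = 0.00267). The other transmembrane chains did not pass. They were Col13a1, found at cell adhesions, and Col17a1, known from the hemidesmosomes of skin.

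Of the fibrillar chains, 2 of 11 passed, both higher in OB and both minor chains. Col11a1 codes for a chain that nucleates thin fibrils, best known from cartilage. Its level was 8.02, 7.87, 8.01, 7.81 and 7.72 in OB control samples, against 7.75, 7.55, 7.64, 7.50 and 7.43 in SEZ control samples. The lowest OB array lay just under the highest SEZ array, and the difference was 0.31 (SE 0.075, interval 0.15 to 0.47, limma adjusted p = 0.00436). Without the 3 OB arrays with high meningeal markers described below it was 0.27, with an adjusted p of 0.0504.

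Col24a1, a fibrillar collagen best known from developing bone, had 7.79, 7.65, 7.81, 7.74 and 7.65 in OB control samples, against 7.48, 7.50, 7.37, 7.27 and 7.35 in SEZ control samples. The groups did not overlap. OB was higher by 0.34 (SE 0.085, interval 0.16 to 0.52, limma adjusted p = 0.00601).

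None of the 5 meningeal fibrillar chains passed in the fit without a replicate block. Col1a1 and Col1a2 code for the chains of type I collagen, which are assembled together in 1 triple helix. Col1a1 had 8.82, 8.86, 8.83, 8.75 and 8.49 in OB control samples, against 8.75, 8.42, 8.51, 8.22 and 8.42 in SEZ control samples. The difference of 0.29 missed the threshold (SE 0.105, interval 0.06 to 0.51, limma adjusted p = 0.0545), and SEZ control replicates 1 and 3 reached into the OB range. It passed with the replicate number as a block (adjusted p = 0.0321) and in 12 of 31 alternative analyses in all, with adjusted p between 0.00323 and 0.298 over them.

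Col1a2 had 8.24, 8.44, 8.26, 8.20 and 7.87 in OB control samples, against 8.36, 8.23, 8.26, 7.96 and 8.25 in SEZ control samples. The ranges were nearly the same, and the difference was -0.01 (interval -0.23 to 0.21). Col3a1, the chain of type III collagen, which forms fibrils together with type I, had 7.23, 7.39, 7.42, 7.48 and 7.06 in OB control samples, against 7.58, 7.41, 7.32, 7.14 and 7.30 in SEZ control samples. Its difference was -0.03 (interval -0.23 to 0.17). For type V collagen, which regulates fibril width, the difference was 0.18 for Col5a1 (interval -0.01 to 0.38) and 0.01 for Col5a2 (interval -0.18 to 0.20).

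None of the 6 basement membrane chains passed either, and their smallest adjusted p was 0.316. Col4a1 had 8.01, 8.01, 8.11, 7.98 and 7.94 in OB control samples, against 8.25, 7.93, 7.85, 7.68 and 7.82 in SEZ control samples. Its SEZ range enclosed the OB range. Col4a2 had 8.25, 8.19, 8.22, 8.27 and 8.14 in OB control samples, against 8.18, 8.02, 8.21, 8.0 and 8.08 in SEZ control samples. The differences were 0.11 for Col4a1 (interval -0.11 to 0.32) and 0.12 for Col4a2 (interval -0.05 to 0.28). Col4a3 and Col4a4, which with Col4a5 form the network of the kidney filter, had differences of 0.005 (interval -0.17 to 0.18) and -0.007 (interval -0.15 to 0.13). Col4a5 had 0.11 (interval -0.05 to 0.27), and Col4a6, at about the background level, had 6.85 ± 0.09 in OB control and 6.90 ± 0.16 in SEZ control samples (SD, n = 5).

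Meningeal fibrillar and basement membrane chains thus gave the same count, 0 passing, in the fit without a replicate block. With the replicate number as a block, Col1a1 passed and no basement membrane chain did. The median difference was 0.014 over the 5 fibrillar chains and 0.055 over the 6 basement membrane chains, and the differences ran from -0.03 to 0.29 for the fibrillar and from -0.06 to 0.12 for the basement membrane chains. Array by array the class means moved together. Over the SEZ controls, replicate 1 had the highest mean of both classes, 7.97 and 7.62, and replicate 4 the lowest, 7.55 and 7.23. Over the OB arrays, OB cKO replicate 3 had the highest, 8.08 and 7.62, and OB control replicate 5 the lowest, 7.61 and 7.36.

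**Figure D2:**
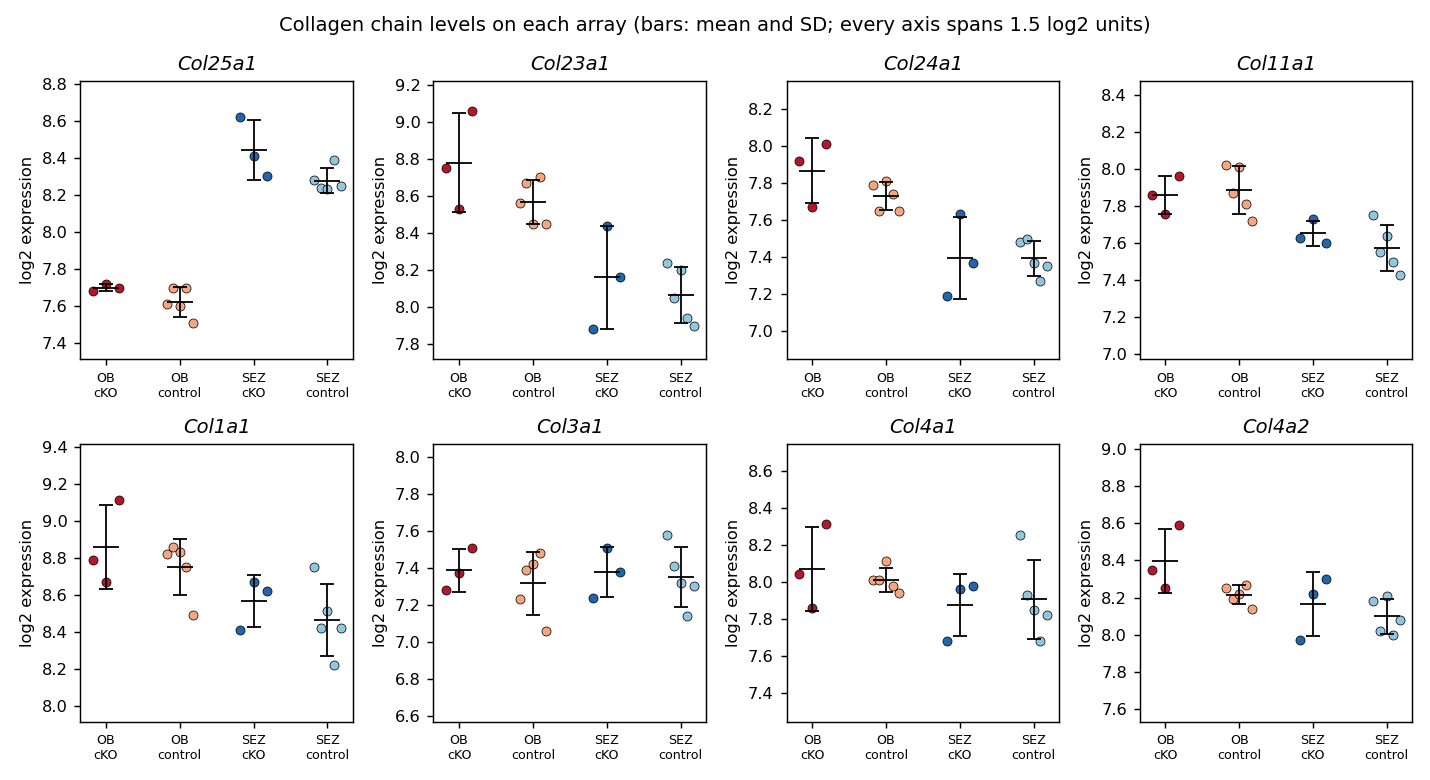
Log2 expression on each array (points) with mean and SD (bars) for the 4 collagen chains that passed between tissues and for Col1a1, Col3a1, Col4a1 and Col4a2, in OB cKO, OB control, SEZ cKO and SEZ control samples. Col25a1 lies at 7.51 to 7.72 on all OB arrays and at 8.23 to 8.62 on all SEZ arrays, while the groups of Col3a1 and Col4a1 overlap.

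The remaining classes held no chain that passed. Among the beaded filament chains, Col6a4 had the largest difference on the probe sets used. It had 6.85, 7.08, 7.20, 7.06 and 6.73 in OB control samples, against 7.64, 7.26, 8.15, 6.98 and 7.06 in SEZ control samples. SEZ control replicates 1, 2 and 3 lay above every OB control and the other 2 overlapped. The difference was -0.44 (limma adjusted p = 0.09). Col6a4 passed with the replicate number as a block, which cKO and control arrays shared. It did not pass with a block by number within genotype. Col6a5 had a difference of -0.24 (limma adjusted p = 0.137) on its brightest probe set. Its dimmer probe set, which was not used, lay further apart, at 6.53 in OB control and 7.10 in SEZ control samples. The value of 6.53 was under the OB control background level of 6.85. Col6a1 varied widely among replicates, between 9.45 and 10.06 in OB control and between 9.20 and 10.06 in SEZ control samples. For the multiplexins, which link basement membranes to the matrix around them, the differences were 0.07 for Col15a1 (interval -0.08 to 0.23) and 0.02 for Col18a1 (interval -0.19 to 0.23). Of the FACIT chains, which decorate the surface of fibrils, Col12a1 had the largest difference, 0.43, and is described below.

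The same comparison in cKO animals uses other arrays and gave a similar picture. Here 3 chains passed, Col23a1 and Col24a1 higher and Col25a1 lower in OB, where 23.1% of all genes tested passed. These 3 were also among the 4 that passed in controls. Without overlap between the groups, 3 chains were higher (14.3% of all genes) and 2 lower (19% of all genes). Col25a1 had 7.68, 7.72 and 7.70 in OB cKO samples, against 8.62, 8.41 and 8.30 in SEZ cKO samples, a difference of -0.74 (SE 0.084, interval -0.92 to -0.56, limma adjusted p = 3.25e-06). The groups did not overlap. Col23a1 had 8.75, 8.53 and 9.06 in OB cKO samples, against 7.88, 8.44 and 8.16 in SEZ cKO samples, higher by 0.62 (SE 0.146, limma adjusted p = 0.00425). Col24a1 had 7.92, 7.67 and 8.01 in OB cKO samples, against 7.19, 7.63 and 7.37 in SEZ cKO samples, higher by 0.47 (SE 0.110, limma adjusted p = 0.00387). Both genes were separate between the tissues by a narrow margin, and without the cKO arrays numbered 1 the limma adjusted p was 0.0615 for Col23a1 and 0.0878 for Col24a1. Without the cKO arrays numbered 3, on which Slc1a3 was low (both analyses added after seeing the data), it was 0.0633 for Col23a1 and 0.0619 for Col24a1, and only Col25a1 passed. Col11a1 had a difference of 0.21 with an adjusted p of 0.149, and whether it was smaller than in controls was tested by the difference of cKO effects, which it did not pass (0.10, interval -0.16 to 0.36). The sign of the tissue difference was the same in both genotypes for 37 of the 44 chains (84.1%) and for 79.2% of all genes.

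Some partners in making and placing collagen differed between the tissues by more than any chain did. As a share of each list, the collagen making genes and the receptors passed about as often as the 27.5% of all genes, and the basement membrane partners more often; these shares were not tested. Of 27 measured genes for collagen processing and cross-linking (29 listed), 6 were higher and 3 lower in OB control than in SEZ control samples. Tll1, a protease that trims the C-terminal end of procollagen, had 8.50, 8.54, 8.55, 8.63 and 8.84 in OB control samples, against 6.65, 6.55, 6.76, 7.03 and 6.80 in SEZ control samples. Its SEZ control mean of 6.76 was under the background level, so no fold is given (limma adjusted p = 4.98e-11). Bmp1, a protease of the same family, was higher by 0.71 (adjusted p = 0.00157). P3h2, a prolyl 3-hydroxylase, had 9.34, 9.04, 9.32, 9.08 and 9.07 in OB control samples, against 8.15, 7.75, 8.15, 8.16 and 8.30 in SEZ control samples, a difference of 1.07 (adjusted p = 3.68e-06). Plod2, which hydroxylates lysines for cross-linking, was higher by 0.96 (adjusted p = 2.33e-06), and Loxl1 and P3h4 were higher by 0.46 and 0.23.

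The 3 partners lower in OB act on procollagen or on its trimming. Adamts3, a protease that removes the N-terminal end of procollagen, had 10.30, 10.30, 10.10, 10.38 and 10.56 in OB control samples, against 11.29, 11.24, 11.58, 11.37 and 11.19 in SEZ control samples. The groups lay far apart, with a difference of -1.01 (SE 0.095, adjusted p = 2.32e-07). Pcolce2, an enhancer of C-terminal trimming, had -1.07 (adjusted p = 2.49e-04) and P4ha1, a subunit of prolyl 4-hydroxylase, had -0.25 (adjusted p = 0.0126). Serpinh1, the collagen chaperone, had a difference of -0.03 (interval -0.21 to 0.15).

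Of the 9 collagen receptors measured (10 listed), 2 were higher and 1 lower in OB. Ddr2, a receptor kinase for fibrillar collagen, was higher by 0.47 (adjusted p = 0.00242), and Itga11, an integrin chain for fibrillar collagen, had -0.46 (adjusted p = 0.00167). Itga2, the third to pass, lay under the background level in both groups. Of the 15 basement membrane partners measured (16 listed), 4 were higher and 4 lower. The laminin chain gene Lamb1 had 7.58, 7.65, 7.58, 7.73 and 7.70 in OB control samples, against 8.96, 8.81, 8.78, 9.04 and 8.88 in SEZ control samples (difference -1.24, adjusted p = 6.01e-11). Its partner chain Lamc1 had -0.42 (adjusted p = 0.0125). Nid1, which ties laminin to the type IV network, was higher in OB by 0.88 (adjusted p = 3.49e-04), and Hspg2, the heparan sulphate proteoglycan perlecan, had -0.01 (interval -0.18 to 0.16). Some laminin chains and Nid1 thus differed between the tissues, and no type IV chain passed.

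Markers of the cells that make collagen were set beside these counts, with 27.5% of all genes passing. Of 11 endothelial markers measured, 6 were lower in OB control than in SEZ control samples and 0 higher, with a median difference of -0.247. Of 10 mural cell markers 3 were lower, among them Acta2, the actin of smooth muscle, at 7.57 ± 0.14 in OB control and 9.24 ± 0.22 in SEZ control samples (SD, n = 5, difference -1.67). Of 14 meningeal fibroblast markers 2 were higher, Fmod and Crabp2, and of 9 choroid plexus markers 4 were lower and 1 higher. The mural share was close to that of all genes and the meningeal share below it. The median difference was -0.205 over the mural, 0.484 over the meningeal and -0.242 over the choroid plexus markers. Of the 14 meningeal estimates 12 were above 0, against 50.9% of all genes. The part of these cell types in the collagen values was not tested.

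Meningeal fibroblast markers also set 3 OB arrays apart within their groups. OB cKO replicate 1 and OB control replicates 1 and 2 had mean marker levels of 8.47, 8.23 and 8.17, against 7.11 to 7.54 on the other 5 OB arrays, and SEZ arrays lay at 7.13 to 7.30. Dcn, the small proteoglycan decorin that binds collagen fibrils, had 10.24 in OB cKO replicate 1 and 10.09 and 10.32 in OB control replicates 1 and 2, against 7.78 to 8.53 on the other 5 OB arrays. In all, 10 of the 14 markers were separate in this way, with a median difference of 0.94 over the list and a highest of 2.06. Lum, another fibroblast marker, stayed under the background level on all arrays.

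The fibrillar collagens did not follow. Across the 44 chains the same split of OB arrays gave a median difference of -0.02 and a lowest of -0.16. Col12a1 alone was separate, with 7.86 in OB cKO replicate 1 and 7.86 and 7.90 in OB control replicates 1 and 2, against 6.94 to 7.30 on the other 5 OB arrays and 6.77 to 7.10 on the SEZ arrays. It was named here after its values were seen. Col12a1 codes for a FACIT collagen of tendon and other dense connective tissue. After its 0.81 the next largest difference was 0.19, for Col1a2, whose 3 arrays at 8.24 to 8.46 lay within the 7.87 to 8.48 of the other 5. Col1a1 had 8.79, 8.82 and 8.86 on the 3 arrays and 8.49 to 9.11 on the other 5, and Col3a1 had 7.28, 7.23 and 7.39 on the 3 arrays and 7.06 to 7.51 on the other 5.

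**Figure D3:**
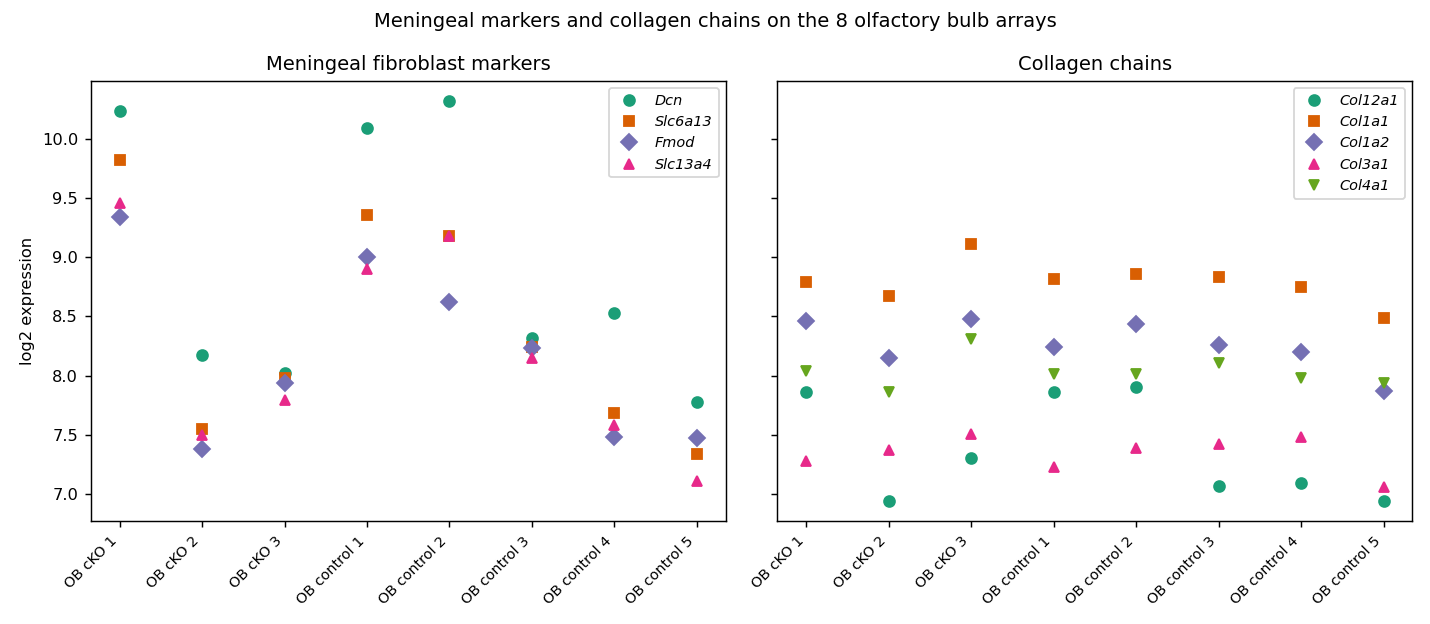
Log2 expression on the 8 OB arrays of 4 meningeal fibroblast markers (left) and of 5 collagen chains (right), 1 symbol per gene. Dcn, Slc6a13, Fmod and Slc13a4 are high on OB cKO replicate 1 and OB control replicates 1 and 2, Col12a1 at 7.86 to 7.90 is high on the same arrays, and Col1a1, Col1a2, Col3a1 and Col4a1 are not separate.

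Since the 3 arrays were picked by these markers, the split has no test. Col12a1 averaged 7.37 ± 0.47 in OB control and 6.95 ± 0.11 in SEZ control samples (SD, n = 5), a difference of 0.43 (SE 0.19, limma adjusted p = 0.112). Without the 3 arrays it was 0.09.

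Levels in cKO samples were then compared with those in control samples. Most controls were Brg1fl/+, and the recombinase is driven from a gene of astroglia and neural stem cells. Smarca4 averaged 11.02 in OB cKO and 11.01 in OB control samples, and 10.70 in SEZ cKO and 10.71 in SEZ control samples. Whether collagen chains depend on Brg1 in the cells that make them therefore cannot be decided here. No chain passed in either tissue. In OB, 0 of 44 passed and 0 had an unadjusted p under 0.05, where 0.0451% of all genes passed, 9 genes (5 with the replicate number as a block, 2 without both cKO arrays numbered 3), and 700 genes had an unadjusted p under 0.05. In SEZ, 0 of 44 passed, where 0% of all genes did, and 1 chain and 492 genes had an unadjusted p under 0.05. The difference between the tissues' cKO effects passed for 0 chains, with 0 at an unadjusted p under 0.05, and for 0.00502% of all genes, 1 gene. The groups were separate for 0 chains in either tissue, where cKO samples lay wholly above controls for 0.958% of all genes and wholly below for 1.57% in OB, and for 0.943% and 1.05% in SEZ. The cKO and the tissue comparisons share control arrays.

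**Figure D4:**
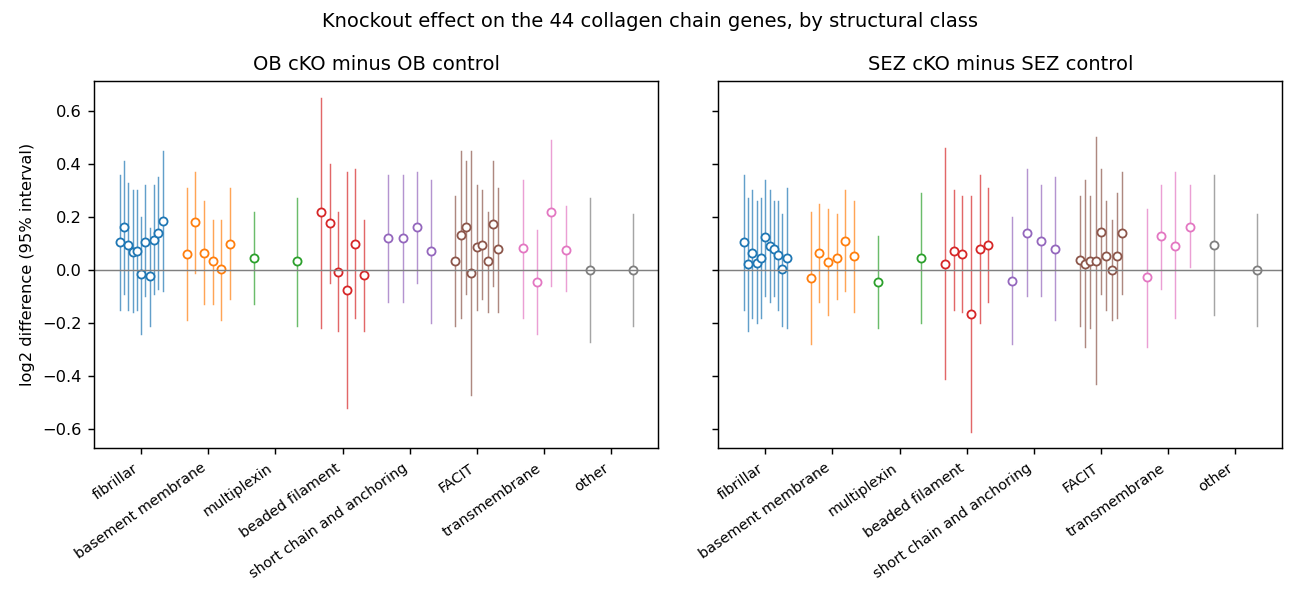
Log2 difference between cKO and control samples in OB (left) and SEZ (right) for the 44 collagen chain genes by structural class, with 95% intervals. Open points show that no chain passed, and the estimates lie between -0.08 and 0.22 in OB and between -0.16 and 0.16 in SEZ.

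In OB the chain with the smallest unadjusted p was Col4a2. It had 8.35, 8.25 and 8.59 in OB cKO samples, against 8.25, 8.19, 8.22, 8.27 and 8.14 in OB control samples. OB cKO replicates 1 and 3 lay above every control and OB cKO replicate 2 among them. The difference was 0.18 (SE 0.088, interval -0.01 to 0.37, limma adjusted p = 1), and without both cKO arrays numbered 3 it was 0.08. Its head-to-head partner Col4a1 had 8.04, 7.86 and 8.31 in OB cKO samples, with the same array highest, and a difference of 0.06 (interval -0.19 to 0.31). Col23a1 and Col6a2, a beaded filament chain, came next, with differences of 0.22 (interval -0.06 to 0.49) and 0.18 (interval -0.05 to 0.40). Without both cKO arrays numbered 3, that of Col23a1 was 0.08 and that of Col6a2 0.11.

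In SEZ the chain with the smallest unadjusted p was Col25a1, with 8.62, 8.41 and 8.30 in SEZ cKO samples, against 8.28, 8.24, 8.23, 8.39 and 8.25 in SEZ control samples. SEZ cKO replicate 1 was high and SEZ cKO replicate 3 lay within the control range. The difference was 0.16 (SE 0.075, interval 0.01 to 0.32, unadjusted p = 0.0433, limma adjusted p = 1). Col17a1 and Col14a1, a FACIT chain, followed with 0.13 (interval -0.07 to 0.32) and 0.14 (interval -0.09 to 0.38). For the difference of effects, SEZ minus OB, the smallest unadjusted p were those of Col17a1 at 0.17 (interval -0.10 to 0.45), Col24a1 at -0.14 (interval -0.43 to 0.15) and Col7a1, the anchoring fibril chain, at -0.16 (interval -0.50 to 0.18).

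The fibrillar and basement membrane chains best known from meninges and vessels gave intervals on both sides of 0 for the cKO effect. In OB the differences were 0.11 for Col1a1 (interval -0.15 to 0.36), 0.16 for Col1a2 (interval -0.09 to 0.41) and 0.07 for Col3a1 (interval -0.16 to 0.30). In SEZ they were 0.10 for Col1a1 (interval -0.15 to 0.36), 0.02 for Col1a2 (interval -0.23 to 0.27), 0.03 for Col3a1 (interval -0.20 to 0.26), -0.03 for Col4a1 (interval -0.28 to 0.22) and 0.06 for Col4a2 (interval -0.12 to 0.25). The largest upper bounds over all 44 chains were 0.65 in OB and 0.50 in SEZ. The lowest lower bounds, both of Col6a4, were -0.52 in OB and -0.61 in SEZ. None of the collagen making genes, receptors and basement membrane partners passed in either tissue.

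Small shifts were mostly upward. The cKO estimate was above 0 for 37 of 44 chains in OB (84.1%, median 0.080) and for 39 of 44 in SEZ (88.6%, median 0.054). Over all genes it was above 0 for 47.9% in OB (median -0.005) and for 52% in SEZ (median 0.004). The chains' mean per array showed the spread behind this. It was 7.76, 7.68 and 7.87 in OB cKO samples, against 7.68, 7.74, 7.75, 7.76 and 7.53 in OB control samples. In SEZ it was 7.58, 7.84 and 7.69 in cKO samples, against 7.87, 7.63, 7.71, 7.47 and 7.58 in control samples. The groups overlapped in both tissues.

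The level of the olfactory receptor genes moved with these means at their extremes. OB cKO replicate 3 and SEZ control replicate 1, with the highest collagen means of their tissues, 7.87 each, had receptor means of 5.41 and 5.39, while OB control replicate 5 and SEZ control replicate 4, with low collagen means, both had 5.26. With the receptor mean as a covariate, an analysis added after seeing the data, the cKO estimate was above 0 for 31 of 44 chains in OB (median 0.029). In SEZ it was above 0 for 13 of 44 (median -0.045), so the direction of the median turned. Over all genes the shares above 0 with the covariate were 44.7% in OB and 49.1% in SEZ. For the tissue difference in controls the count above 0 was 25 of 44 with the covariate (median 0.015), against 49% of all genes. For that in cKO animals it was 29 of 44 without the covariate (median 0.093). With the covariate it was 30 of 44 (median 0.11), against 47.4% of all genes. For the difference of cKO effects the count was 16 without and 12 with the covariate, against 53.4% of all genes with it.

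Genes whose profile over the 16 arrays was most like that of the fibrillar and basement membrane chains were sought among 14356 genes above background, after each group's mean was removed. Closest to the mean of Col1a1, Col1a2 and Col3a1 were Cebpe (Pearson r 0.95), 4930451I11Rik (0.95), Ppy (0.93), Trav13-5 (0.93) and F630042J09Rik (0.92). Closest to the mean of Col4a1 and Col4a2 were Hcst (0.96), Tmem191c (0.92), Adamts17 (0.91), Mir598 (0.91) and 1700036A12Rik (0.91). No gene on the meningeal, endothelial or mural marker lists was among them. These are descriptions over arrays that share their normalisation, with no test.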

How the data were processed

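The 16 samples were grouped by the genotype and tissue in the labels, and the members and gene lists were chosen with earlier results of these data known. The deposited values are log2 expression per probe set, made by the authors with RMA in Affymetrix Expression Console 1.2, per the submitters' processing notes. RMA subtracts background and quantile-normalises the arrays, which removes shifts common to all genes, and the sources used here name no genome build for the probe sets. Total RNA was column-purified with DNase and biotin-labelled, per the labels' protocols. Precision is limited by the number of arrays.

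The platform annotation gave 1 symbol for 21789 of 35556 probe sets, several for 1621 and none for 12146. Those with 1 symbol gave 19938 genes, and all 44 collagen symbols were also in RefSeq. A joint fit of all arrays was made with limma 3.58.1 (lmFit and eBayes) in R 4.3.3, as 4 group means without covariates, leaving 12 residual and 4.34 prior degrees of freedom. Tests were two-sided, with Benjamini-Hochberg adjustment over all genes at 0.05, and the fit was tested on simulated data. No arrays were duplicates, with a highest correlation between any 2 of 0.995.

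Genes described were Col1a1, Col1a2, Col3a1, Col4a1 and Col4a2, the meningeal fibrillar and basement membrane classes, chains that passed between tissues, the 3 with the smallest p in each cKO comparison, and up to 4 genes of each partner list, with others of the collagen making list named after their values were seen. Groups shared replicate numbers. Same-numbered arrays were correlated after group means were removed. The values lay between 0.17 and 0.57 for OB with SEZ controls and between 0.32 and 0.43 for OB cKO with OB control samples. All were over 0.1, so the numbers were taken to pair those samples from the data. The labels do not say what the numbers mark. A cKO and a control array come from animals of different genotype, so a number they share cannot mark the same animal. By the labels this also holds for OB and SEZ control replicate 5, Brg1fl/+ and Brg1+/+, which correlated at 0.47. A value over 0.1 thus does not show that arrays share an animal. The joint fit did not use the numbers, which entered only in alternative analyses. For OB with SEZ in cKO animals the lowest was -0.06 and for SEZ cKO with control -0.41, and those were not taken as pairs. In cKO animals the value of -0.06 was that of number 1, and numbers 2 and 3 had 0.25 and 0.39. Slc1a3 was low on both cKO arrays numbered 3, and whether those share an animal was not tested. Alternatives covered probe set choice, filters on low levels, cyclic loess, centring, array weights, a robust trend, fits on fewer arrays, the replicate number as a block and leaving arrays out. Added after seeing the data were fits without the 3 OB arrays, without both cKO arrays numbered 1 or numbered 3 and with the olfactory receptor mean as a covariate.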

Additional observations from a re-analysis of the deposited data

Results flagged for a closer look

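In groups of 5 arrays, 1 array lay far from the other 4 in 4 of 88 combinations of a collagen chain and a control group, and chance alone flags about 1 in 20. Col2a1, the chain of cartilage type II collagen, had 7.89 in OB control replicate 5, below the 8.09 to 8.15 of the other OB controls. Col10a1 had 6.88 in OB control replicate 4, above the 6.45 to 6.55 of the others, at about the background level. Col4a4 had 7.50 in SEZ control replicate 1, above the 7.22 to 7.27 of its group, and Col6a5 had 7.96 in the same array, against 7.43 to 7.56. SEZ control replicate 1 was also the SEZ control with the highest mean over all collagen chains.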

How the results depend on the processing

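The count of collagen chains that passed stayed at 0 for the cKO effect in OB, the cKO effect in SEZ and the difference of effects under every alternative run (32, 32 and 31). A fit on only the arrays of the groups compared was not run for the difference of effects, which needs all arrays. For OB against SEZ controls, where 4 passed, the count was 2 with only genes above the median level, which left Col25a1 untested, 9 with array weights and 8 with the olfactory receptor mean as a covariate (added after seeing the data), and 4 to 6 when 1 replicate was left out. For OB against SEZ in cKO animals, where 3 passed, it was 1 with only genes above the median level, 1 without both cKO arrays numbered 1 and 1 without both numbered 3 (added, leaving Col25a1), 5 with the receptor covariate (added) and 3 to 4 when 1 replicate was left out. With the replicate number as a block the counts were 6 in controls and 4 in cKO animals, and with a random block within genotype 5 and 3. The replicate number block gave cKO and control arrays of the same number a shared term. With the random block, Col6a4 in controls and Col6a1 in cKO animals did not pass. For the comparisons whose numbers were not taken as pairs, the replicate number block added Col6a1 in OB against SEZ of cKO animals and 0 chains to the cKO effect in SEZ. In all, 9 of 16 arrays correlated best with their own number in the other tissue, a hint from the data and not from the design. The block changed no other chain's call in the paired comparisons beside Col1a1 and Col6a4. Col12a1 in controls passed without OB control replicate 5 (0.54, adjusted p = 0.0491). Across alternatives, the count of all genes passing was 2 to 10 for the cKO effect in OB (9), 0 to 2 in SEZ (0), 0 to 2 for the difference of effects (1) and 2996 to 5812 for OB against SEZ in cKO animals (4614).

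Estimates near 0 changed sign, none of them past the threshold, and the cause was not tested. For Col12a1 in OB cKO against control (-0.01) the value was 0.001 after centring, 0.117 with array weights, 0.083 without the 3 OB arrays, 0.023 without both cKO arrays numbered 3 and -0.256 to 0.204 when 1 replicate was left out. In SEZ (0.033) it was -0.079 with the replicate block, -0.029 without both cKO arrays numbered 1 and -0.029 to 0.11 when 1 was left out. Col1a1 gave -0.021 in OB without both cKO arrays numbered 3 and -0.021 to 0.202 when 1 was left out, and -0.02 in SEZ with the receptor covariate. Col1a2 between tissues (-0.009) gave 0.001 with loess, 0.01 after centring, 0.024 with array weights and -0.073 to 0.074 when 1 was left out. Its cKO effect in SEZ (0.021) gave -0.07 with the block, -0.058 without SEZ control replicates 2 and 4, -0.078 with the covariate and -0.043 to 0.061 when 1 was left out. Col3a1 between tissues (-0.031) gave 0.028 with array weights and -0.084 to 0.034 when 1 was left out. Its cKO effect in SEZ (0.028) gave -0.031 with the block, -0.021 without SEZ control replicates 2 and 4, -0.078 with the covariate and -0.039 to 0.096 when 1 was left out. Col4a1 gave -0.008 with the block, -0.057 without both cKO arrays numbered 3 and -0.057 to 0.163 when 1 was left out in OB (0.06). In SEZ (-0.03) it gave 0.03 with array weights, 0.066 without both cKO arrays numbered 1 and -0.087 to 0.066 when 1 was left out. Col4a2 in SEZ (0.063) gave -0.004 without both cKO arrays numbered 3 and -0.004 to 0.156 when 1 was left out.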
